A study of Drosophila melanogaster with 15 samples.

Results

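Long noncoding RNAs are transcripts without a long reading frame, and 60 of them were well expressed in nuclei of ageing Drosophila photoreceptors. They are the genes whose FlyBase symbol starts with lncRNA: and whose mean level over the libraries was at least 10 CPM (a gene's share of all gene counts, per 1e6), with the dosage compensation RNAs roX1 and roX2 set aside by name. The count table held 17558 genes, of which 1797 carried that symbol, and 1320 of these had at least 1 count. The members were thus chosen by their measured mean level, and the levels given for them are a description. The members just inside the limit had plain mean CPM of 10.4 (CR44946), 10.2 (CR44832) and 10.2 (CR43958), and the genes just outside it had 9.18 (CR44817), 9.13 (CR44221) and 9.04 (CR44779). Nuclear RNA came from male flies aged 10, 20, 25, 30 and 40 days after eclosion, with 3 biological replicates per age. All flies carried the same alleles in a w background, namely UAS-GFP-Msp300KASH at attP2, rh1-GAL4 and ry506, so no age had a separate genetic control. They were kept at 25 °C in a 12:12 light and dark cycle, and about 400 of them were pooled for a sample. The tag puts green fluorescent protein on the nuclear membrane of the outer photoreceptors R1 to R6, whose nuclei were then captured from homogenised heads on antibody beads. The driver is also active in the antennae according to the study, so the nuclei are enriched and not pure. Day 30 replicate 3 was discarded by the study for poor alignment and was left out, which leaves 14 libraries.

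A long noncoding RNA can act in the nucleus as a scaffold for proteins, can be the precursor from which a microRNA is cut, or can be transcribed through or opposite a coding gene without a known role of its own. Hsromega, the best studied fly example, is made at a heat shock locus, stays largely nuclear and gathers hnRNP proteins into omega speckles. let7C is the shared precursor of 3 microRNAs that time the passage to adulthood. Most other members have only a catalogue number (CR and digits), and no role is stated for them here. By the annotation, 26 of the 60 members overlapped no coding gene, 12 lay opposite a coding gene, 11 lay in an intron of a coding gene on its own strand, 8 shared exon bases with a coding gene on the same strand, and 3 began within 1000 bp downstream of one. In 12 members a microRNA gene lay inside the transcript on the same strand. Chromosome 3L held 15 members, 2L 13, 3R 12, 2R 9, X 9 and chromosome 4 held 2. Counting was strand-specific and left out read pairs that fit more than 1 gene, so the members that share exon bases with another gene on their strand were counted from the rest of their length. For the 11 intronic members, unspliced RNA of the coding gene that covers the member would be counted as the member. The same holds for members that share exon bases and lie inside the coding gene, namely CR43900 in Cam, CR42549 in mura, CR44092 in mask and CR43958 in Tdg. How much of the counts of these members came from unspliced RNA was not tested. For the 12 opposite strand members, the part of their counts from reads of the coding gene given the wrong strand was not tested either.

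The 14 libraries held 6213255 to 19819118 gene counts, and 3 counts amounted to 0.151 to 0.483 CPM. Each of the 60 members was over 1 CPM in each of the 14 libraries, with 33 counts as the lowest value and a median of 284. Markers of outer photoreceptors summed to 77117 to 117134 CPM in the day 10 libraries and 97144 to 142983 CPM in the day 40 libraries, and 0 of the 9 changed in the age test. Markers of other cells were low but present: 5 glial genes summed to 432 to 636 CPM at day 10 and 451 to 513 CPM at day 40 (alrm, an astrocyte gene, was called lower), 4 muscle genes to 198 to 445 and 490 to 660 CPM (Mlc2, a myosin light chain, was called higher), 4 fat body genes to 37.6 to 58.5 and 41.3 to 108 CPM (the yolk protein gene Yp1 was called higher in the age test), and 3 measured genes of auditory neurons to 19.1 to 31.8 and 9.33 to 19.2 CPM with 0 called. In day 40 against day 10, 2 of the fat body genes were called higher. Yp1 went from 0.311 to 22.0 CPM (log2 6.23 ± 1.44, edgeR adjusted p = 0.0113) and the yolk protein gene Yp2 from 0.289 to 10.3 CPM (log2 4.95 ± 1.53, edgeR adjusted p = 0.0481). Rhodopsins of the inner photoreceptors summed to 3572 to 8012 CPM at day 10 and 5333 to 10449 CPM at day 40, with 0 of 4 called. The part of these cells in the results below was not tested. In pooled nuclei, fewer nuclei of a type and less RNA per nucleus cannot be told apart. A further property of the libraries moved with age and is used throughout. Read pairs that aligned outside the annotated exons of the sense strand (no-feature pairs, which take in introns, intergenic sequence and the opposite strand) were counted per 100 gene counts, with a mean ± SD over 3 libraries (2 at day 30). The day 10 libraries had 88.2 ± 23.8 of them, those of day 20 76.8 ± 11.0, those of day 25 70.6 ± 4.72, those of day 30 112 ± 0.224 and those of day 40 50.4 ± 7.25. At day 10, replicates 1, 2 and 3 had 103, 100.4 and 60.7, so that replicate 3 stood near the day 40 libraries with 56.4, 52.5 and 42.4.

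Which of these RNAs changed between young and old photoreceptors was asked with a quasi-likelihood test in edgeR across all 10678 genes tested, with p-values adjusted by Benjamini and Hochberg over all of them. In day 40 against day 10, 20 of the 60 members passed an adjusted p of 0.05 (33.3%), against 10.4% of all genes tested. Of the 20, 2 were higher, where 5.78% of all genes were called higher, and 18 were lower, where 4.64% of all genes were called lower. The median log2 change of the 60 members was -0.39, against 0.0078 for all genes, and 47 of 60 had a negative value, while 50.6% of all genes had a positive one. In the age test, which fits a curve (linear plus squared age terms), 11 members passed (18.3%), against 8.35% of all genes and 12.6% of genes at or over the same mean level. Here 2 were higher, with 4.92% of all genes called higher, and 9 were lower, with 3.44% called lower. Both tests called 10 members, the age test alone called 1 and the comparison of day 40 with day 10 alone called 10. Of the 329 other lncRNA genes tested, 3.65% passed the age test. All 3 day 40 libraries lay below all 3 day 10 libraries in 24 of 60 members, against 12.9% of all genes, and above them in 3, against 15.6%. Leaving out 1 library moved these counts. For day 40 against day 10 the count of 20 became 9 without day 10 replicate 1, 4 without day 10 replicate 2, 10 without day 40 replicate 2 and 7 without day 40 replicate 3, and the age test gave 7, 4, 5 and 7 in the same order against 11. Calls over all genes fell too. Without day 10 replicate 1 or 2, they went from 1112 to 587 or 542 at day 40. In the age test they went from 892 to 532 or 472. The median log2 change of the members lay between -0.46 and -0.37 over all 14 such fits, and 43 to 47 members were negative. CR31781, CR40469, CR44111 and CR44816 stayed called at day 40 in each of the 14 fits, and the other 16 called members lost the call in 2 to 10 of them. With the log2 no-feature ratio as a covariate, 4 members were called in day 40 against day 10, with 1.84% of all genes. In the age test 5 were called, with 436 of the 10678 genes.

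**Figure D1:**
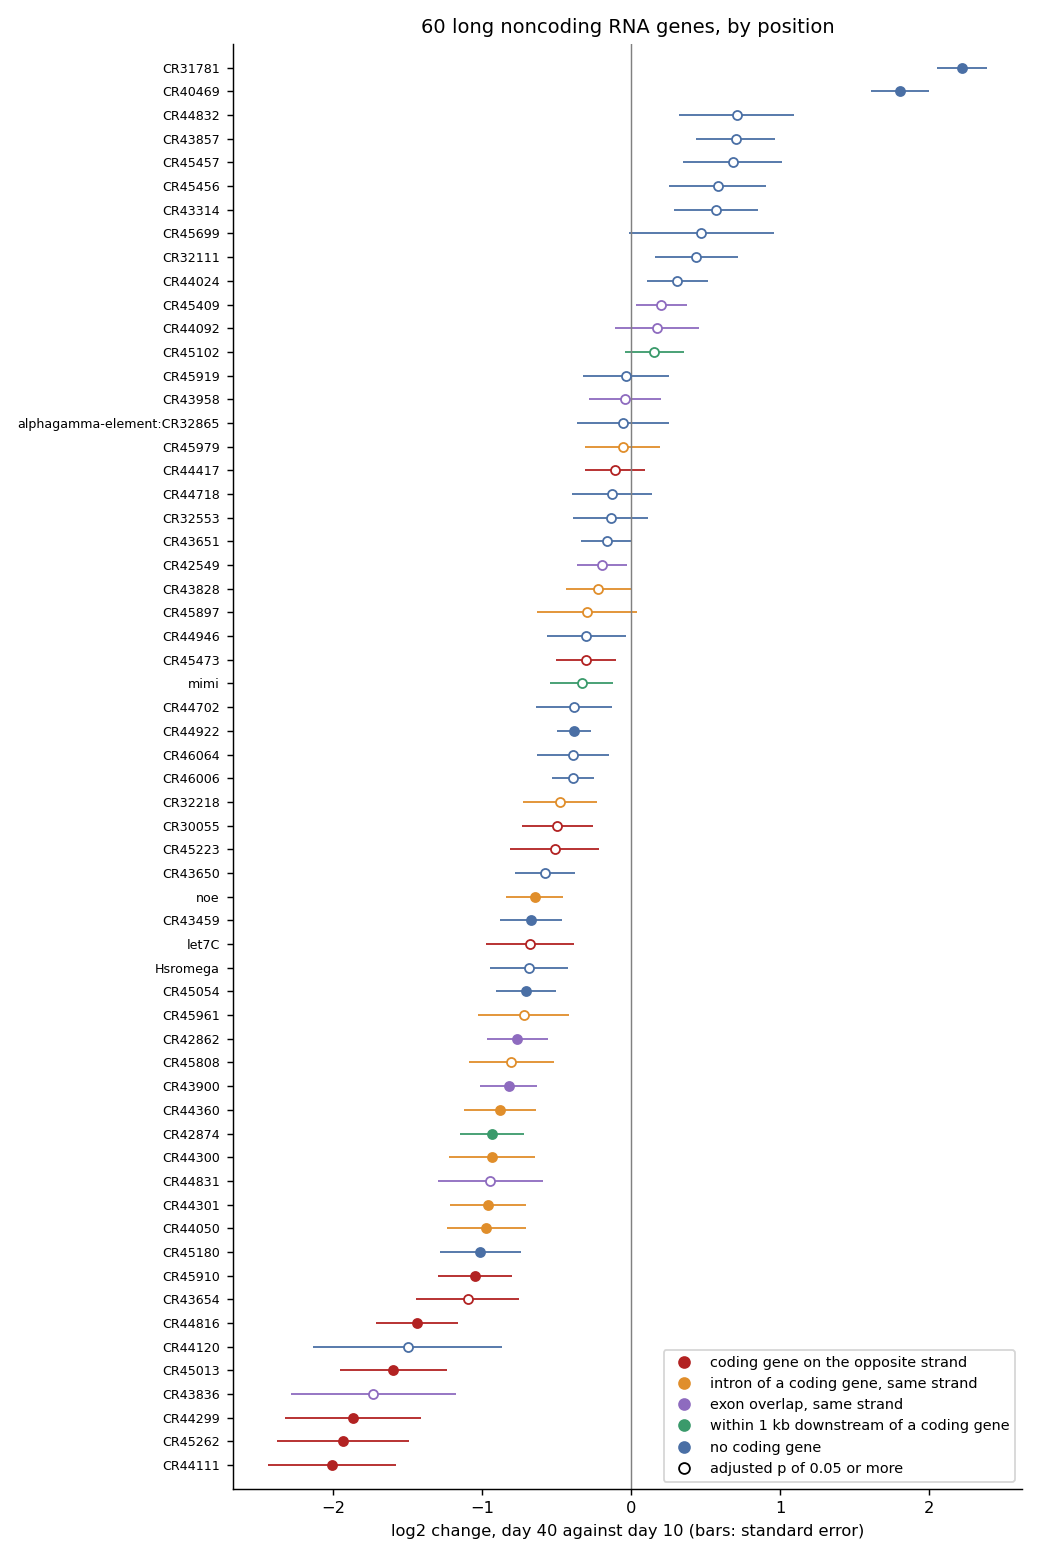
Log2 change from day 10 to day 40 (x axis, bars are standard errors) of the 60 members (y axis, sorted), coloured by position relative to coding genes, with filled points for an adjusted p below 0.05. CR31781 (2.22) and CR40469 (1.80) stand apart on the right, and the 6 lowest called values belong to RNAs opposite a coding gene.

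At the ages in between, few members were called. Day 20 against day 10 gave 0 of 60, with 0.00937% of all genes called, although 12 members and 865 of all genes had an unadjusted p under 0.05. DESeq2 called 2 members and 49 of all genes in that comparison, and limma-voom called 0 and 0. Day 25 against day 10 gave 3 members (2 higher and 1 lower), with 0.974% of all genes, and day 30 against day 10 gave 2, both higher, with 0.871%. Day 40 against day 30 gave 4 members (1 higher and 3 lower), with 1.11% of all genes. The members called higher at days 25 and 30 were CR31781 and CR40469 each time, and the 1 called lower at day 25 was CR44050. These small counts also turned on single libraries. Without day 10 replicate 3 they were 2 at day 20, 7 at day 25 and 8 in day 40 against day 30. All genes called also rose in that fit, from 1 to 27 at day 20 and from 104 to 252 at day 25. At day 25 the count was 1 without day 10 replicate 1 or day 25 replicate 3, at day 30 it was 1 without either day 30 library, and in day 40 against day 30 it was 0 without day 30 replicate 1, 2 without day 30 replicate 2 and 1 without day 40 replicate 3.

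CR31781 showed the largest rise among the 60. It is a transcript of 2679 exonic bases on the plus strand of chromosome 2L, 16869346 to 16878300 (BDGP6.54), with no coding gene across it. Its level was 17.0, 13.7 and 15.7 CPM in the day 10 libraries, 25.3, 28.6 and 26.4 at day 20, 34.6, 42.3 and 44.4 at day 25, 33.7 and 42.3 at day 30 and 64.6, 83.6 and 68.3 at day 40. Every day 40 library lay above every library of the other ages, and every later library lay above every day 10 library. The mean went from 15.5 ± 1.64 to 72.2 ± 10.1 CPM (SD, n = 3), a 4.66-fold rise and a log2 change of 2.22 ± 0.17 (SE), with an edgeR adjusted p of 5.68e-07 at day 40 and 9.36e-07 in the age test. It was also the 1 member called higher from day 30 to day 40, with a log2 change of 0.92 ± 0.18 and an edgeR adjusted p of 0.0198.

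CR40469 was the other riser, a short transcript of 214 bases at chromosome X, 122493 to 122706, near the end of the chromosome's assembled sequence and 4742 bp from RhoGAP1A. Its levels were 132, 153 and 109 CPM at day 10, 275, 202 and 243 at day 20, 253, 290.5 and 274 at day 25, 422 and 254 at day 30 and 423, 392 and 556 at day 40. All later libraries were above the day 10 libraries, and day 30 replicate 1 overlapped the day 40 libraries. The log2 change was 1.80 ± 0.19 from 131 ± 22.1 to 457 ± 87.1 CPM, with an edgeR adjusted p of 2.67e-05 at day 40 and 1.53e-05 in the age test. Per exon length it was one of the most abundant members, with a mean of 1328 CPM per kb of exon. Both risers passed under every alternative tried for the age test and for day 40 against day 10. With the no-feature ratio as a covariate their log2 changes were 2.30 ± 0.27 and 1.78 ± 0.33. The 1 further member with no overlap upward was CR43857, which holds mir-275. Its level was 9.01, 7.40 and 9.71 CPM at day 10 and 13.8, 12.4 and 16.3 at day 40, with a log2 change of 0.70 ± 0.26 and an edgeR adjusted p of 0.101.

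**Figure D2:**
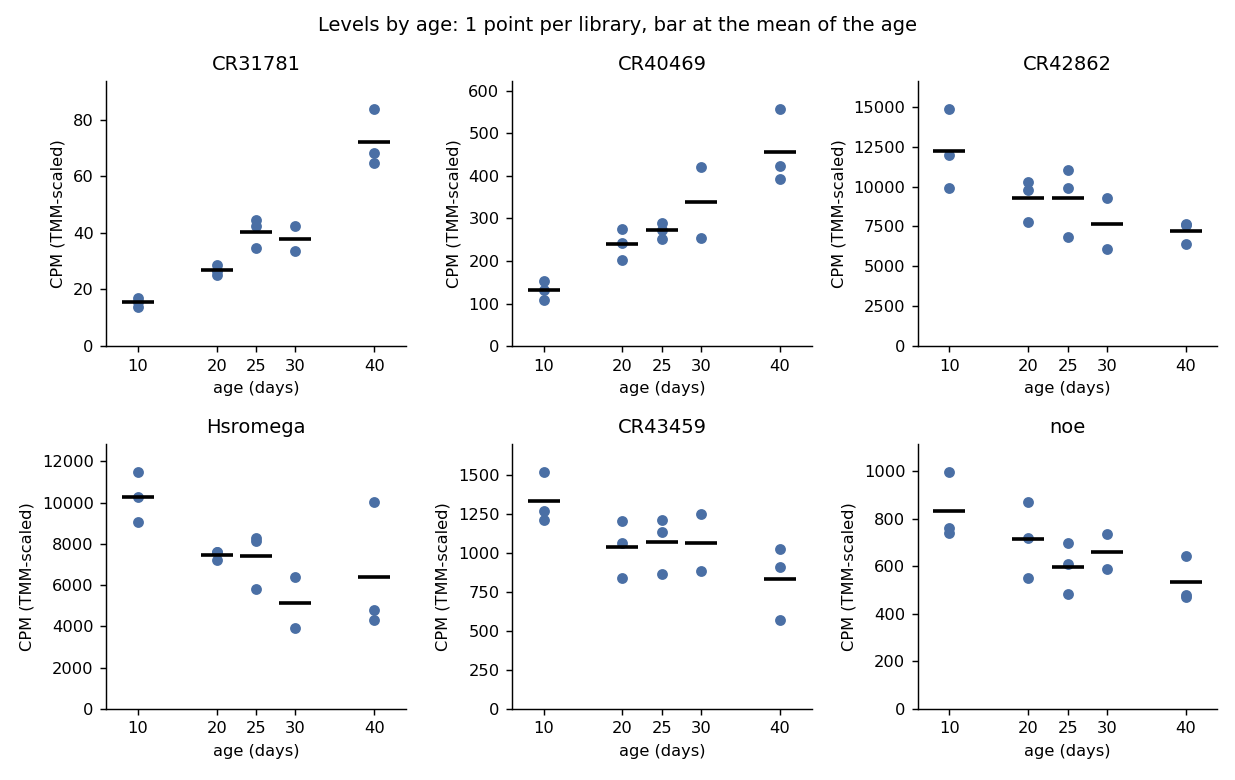
Level in CPM with TMM-scaled library sizes (y axis, from 0) against age in days (x axis) for 6 named members, 1 point per library and a bar at the mean of each age. CR31781 and CR40469 climb from means of 15.5 and 131 at day 10 to 72.2 and 457 at day 40, while 1 day 40 library of Hsromega (10038 CPM) lies among those of day 10.

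The most abundant members were CR42862 and Hsromega, and together they made up 2.09% ± 0.187 of all gene counts at day 10 and 1.35% ± 0.292 at day 40 (SD, n = 3). All 60 members held 2.61% ± 0.217 at day 10 and 1.79% ± 0.253 at day 40, and the other 58 held 0.520% ± 0.0381 and 0.432% ± 0.0395. CR42862, at chromosome 3L, 224106 to 230964 on the plus strand, shares 246 exon bases with CG33229. By the annotation used here it was counted from the rest of its 5485 exonic bases. It had 11957, 14836 and 9922 CPM at day 10, 7786, 10276 and 9763 at day 20, 9906, 6850.3 and 11048 at day 25, 9291 and 6070.3 at day 30 and 7637, 6411 and 7561 at day 40. The day 40 libraries lay below all day 10 libraries but within the range of day 20 to day 30. The log2 change of -0.76 ± 0.21 passed in day 40 against day 10 (edgeR adjusted p = 0.0250) and in the age test (adjusted p = 0.0333). CG33229 itself went from 193 to 169 CPM, with an edgeR adjusted p of 0.458.

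Hsromega was not called. At chromosome 3R, 21296127 to 21317836, it had 9042, 10248 and 11475 CPM at day 10, 7601, 7224 and 7590.5 at day 20, 8138, 5806 and 8277 at day 25, 6375 and 3905 at day 30 and 4302, 4789.9 and 10038 at day 40. At day 40 replicates 1 and 2 lay below all day 10 libraries while replicate 3 lay among them, so the groups overlapped. The log2 change was -0.69 ± 0.26 with an edgeR adjusted p of 0.106, and 0.0951 in the age test. Genes for hnRNP proteins known to bind Hsromega were read beside it. Of the 9 measured, 1 was called lower in the age test, where 3.44% of all genes were, and 2 at day 40, where 4.64% were. None was called higher, and the list median log2 change was -0.31 against 0.0078 for all genes. The called genes were Hrb98DE, from 249.9 to 179 CPM (log2 -0.48 ± 0.12, edgeR adjusted p = 0.0199), and nonA, from 251 to 168 CPM (log2 -0.57 ± 0.17, edgeR adjusted p = 0.0344). Hrb87F, a core speckle protein, had 57.9 CPM at day 10 and 48.5 at day 40 with an edgeR adjusted p of 0.26. Of 8 measured heat shock genes, 1 was called higher in the age test, where 4.92% of all genes were, and 2 at day 40, where 5.78% were: Hsc70-4, a constitutive chaperone, from 923 to 1639 CPM (log2 0.83 ± 0.16, edgeR adjusted p = 0.00439), and the small heat shock gene Hsp26, from 2.19 to 9.36 CPM (log2 2.08 ± 0.59, edgeR adjusted p = 0.0324). Negative values that did not pass were those of Hsf (log2 -0.26), Hsp83 (log2 -0.19) and DnaJ-1 (log2 -0.30), and Hsp23 (log2 2.09), Hsp68 (log2 1.57) and Hsp27 (log2 0.78) had positive ones that did not pass. The other heat shock locus member, alphagamma-element:CR32865, lies 7559 bp from Hsp70Ba, and repeats of its kind at that locus are transcribed on heat shock. Its level was 14.6, 21.3 and 14.02 CPM at day 10 and 13.5, 17.3 and 17.1 at day 40, which overlapped, with a log2 change of -0.05 ± 0.31.

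Further abundant members included noe, CR44922 and mimi. Levels of noe, which lies in an intron of blot on its strand (chromosome 3L, 17400272 to 17401348), were 763, 741 and 997 CPM at day 10, 871, 551 and 718 at day 20, 485, 696 and 611 at day 25, 589 and 735 at day 30 and 480.2, 644 and 472 at day 40. All day 40 values were below all day 10 values, with a log2 change of -0.65 ± 0.19 and an edgeR adjusted p of 0.0364. The host gene blot, a neurotransmitter transporter family gene, was at 43.3 CPM at day 10 and 50.6 at day 40 (log2 0.22 ± 0.14, edgeR adjusted p = 0.357). CR44922 had the smallest called change, from 414, 362 and 367 CPM at day 10 to 281, 277 and 318 at day 40, with a log2 change of -0.38 ± 0.11 and an edgeR adjusted p of 0.0371. The replicates of this gene were close, with an SD of 28.4 and 22.2 CPM. mimi, which begins 270 bp downstream of CG31140, had 652, 572 and 1036 CPM at day 10 and 476, 627 and 691 at day 40, which overlapped (log2 -0.33 ± 0.21, edgeR adjusted p = 0.353). With the no-feature ratio as a covariate its log2 change was -1.13 ± 0.21 with an edgeR adjusted p of 0.00985.

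The 12 members that hold microRNA genes were not called in the age test, and 2 of them were called lower at day 40, where 8.35% of all genes passed the age test and 4.64% were called lower at day 40. The libraries were not made for short RNAs, so the values are those of the long transcript. CR43459 is the transcript across mir-277, which acts on amino acid breakdown, and mir-34, which is known to protect the ageing fly brain. Its level was 1272, 1519.6 and 1209.5 CPM at day 10, 842, 1204 and 1063 at day 20, 1134, 862 and 1211 at day 25, 1252 and 883 at day 30 and 1028, 907 and 573 at day 40. The day 40 libraries were below those of day 10, day 40 replicate 3 being the lowest of all 14, and the log2 change was -0.67 ± 0.21 (edgeR adjusted p = 0.0464). CR45054 ends 3235 bp before CR43459 on the same strand. It had 433, 505 and 395 CPM at day 10 and 335, 301 and 183 at day 40, with a log2 change of -0.70 ± 0.20 and an edgeR adjusted p of 0.0323. The ratio of CR43459 to CR45054 stayed between 2.53 and 3.14 over all 14 libraries, so their levels kept pace within each library.

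The second called host was CR45910, which holds mir-1000, a microRNA that protects fly neurons from glutamate excitotoxicity, and it is described with the opposite strand RNAs. The precursor let7C had 10.9, 20.9 and 10.7 CPM at day 10 and 9.75, 9.78 and 7.08 at day 40. All day 40 values were below those of day 10, but the log2 change of -0.68 ± 0.29 had an edgeR adjusted p of 0.158. CR46006, across mir-276a, a microRNA of memory formation, went from 94.0 ± 7.50 to 71.7 ± 1.79 CPM (log2 -0.39 ± 0.14, edgeR adjusted p = 0.0854), with no overlap between the ages. CR43650, across mir-8, a regulator of growth, went from 62.7 ± 11.6 to 42.1 ± 6.93 CPM (log2 -0.58 ± 0.20, edgeR adjusted p = 0.0778), again with no overlap. For CR43651, across mir-14, which acts on fat metabolism and cell death, the means were 51.0 ± 3.09 and 45.6 ± 12.4 CPM (log2 -0.16 ± 0.17), and for CR45919, across the neuronal mir-124, they were 10.4 ± 1.71 and 10.2 ± 4.17 CPM (log2 -0.04 ± 0.29). Both overlapped between day 10 and day 40. CR43314 with mir-bft had a log2 change of 0.57 ± 0.28 (edgeR adjusted p = 0.219) and CR43836 with mir-31b one of -1.73 ± 0.55 (edgeR adjusted p = 0.0537).

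The largest falls were among the 12 members opposite a coding gene. Their median log2 change at day 40 was -1.07 and 6 of the 12 were called lower, against medians of -0.72 and 5 of 11 for intronic members, -0.48 and 2 of 8 for members that share exon bases, -0.33 and 1 of 3 for those just downstream, and -0.13 and 4 of 26, with 2 higher, for members with no coding gene. CR44111, of 706 exonic bases at chromosome X, 8919640 to 8920467, lies inside rdgA, the photoreceptor diacylglycerol kinase, on its opposite strand and outside its exons. Its levels were 58.6, 54.5 and 12.6 CPM at day 10, 12.7, 19.3 and 24.9 at day 20, 15.1, 17.8 and 20.1 at day 25, 37.1 and 21.7 at day 30 and 14.5, 6.95 and 9.78 at day 40. Day 10 replicates 1 and 2 were the highest of all 14 libraries and replicate 3 lay below day 40 replicate 1. The means gave a 4.02-fold fall and the log2 change was -2.01 ± 0.43, with an edgeR adjusted p of 0.00726. At day 10 there were 5290.1 CPM of rdgA and at day 40 4301 (log2 -0.30 ± 0.24, edgeR adjusted p = 0.474). Over all libraries CR44111 had 0.556 counts per 100 of rdgA. For the other called members of the class these values were 0.56 (CR45262), 1.20 (CR45013), 1.55 (CR45910), 2.28 (CR44299) and 5.46 (CR44816) per 100 of the coding gene.

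CR45262, at chromosome 2L, 9261820 to 9262804, lies likewise inside Ggamma30A, the gamma subunit of the visual G protein. Its levels were 49.2, 51.9 and 14.7 CPM at day 10, 17.6, 22.2 and 33.9 at day 20, 17.7, 9.57 and 25.6 at day 25, 47.7 and 24.7 at day 30 and 11.6, 12.6 and 6.24 at day 40. Day 40 was below day 10, though day 10 replicate 3 was close to it, and day 30 replicate 1 was just under the high day 10 libraries. The log2 change was -1.93 ± 0.44 (edgeR adjusted p = 0.0107). Ggamma30A itself was called lower, from 5628 to 3782 CPM (log2 -0.57 ± 0.16, edgeR adjusted p = 0.0267). CR45013, at chromosome 2L, 11835320 to 11835903, shares 332 exon bases on the opposite strand with Pde1c, a calmodulin-dependent phosphodiesterase. It had 26.1, 25.5 and 8.10 CPM at day 10, 31.5 and 22.2 at day 30 and 6.63, 7.89 and 5.17 at day 40. Day 30 was the highest age here, and the fall from day 30 to day 40 was called (log2 -2.04 ± 0.39, edgeR adjusted p = 0.0176) as was that from day 10 to day 40 (log2 -1.60 ± 0.36, edgeR adjusted p = 0.00974). CR44816, opposite 347 exon bases of the mitofusin gene Marf, had 21.1, 13.3 and 8.91 CPM at day 10, 21.8 and 19.4 at day 30 and 6.24, 5.66 and 4.10 at day 40. It was called lower in day 40 against day 10 (log2 -1.44 ± 0.27, edgeR adjusted p = 0.00400), in day 40 against day 30 (log2 -1.96 ± 0.30, edgeR adjusted p = 0.00612) and in the age test (edgeR adjusted p = 0.0419), the 1 opposite strand member to pass the last. Marf stood at 233 and 229 CPM.

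CR45910 lies inside msi, the gene of the RNA-binding protein Musashi, on the opposite strand. Its levels were 44.6, 46.6 and 21.0 CPM at day 10, 65.0 and 44.9 at day 30 and 20.7, 19.2 and 14.4 at day 40. The day 30 libraries held the highest and the third highest value of the 14, and the fall from day 30 was the larger one (log2 -1.60 ± 0.27, edgeR adjusted p = 0.00870, against -1.05 ± 0.25 and 0.0132 from day 10). CR44299 lies opposite CG33144 and had 47.3, 33.7 and 8.47 CPM at day 10 and 11.4, 9.35 and 3.99 at day 40. These overlapped through day 10 replicate 3 and the log2 change was -1.87 ± 0.46 (edgeR adjusted p = 0.0158). The remaining 6 of the class were not called, with log2 changes from -1.10 (CR43654) to -0.11 (CR44417). There were 14 pairs of a member and a coding gene on the opposite strand. They take in CR43836, of the class that shares exon bases, with rdgA and with Nost, so rdgA enters more than once. In 13 pairs the coding gene was tested, and 2 of these coding genes were called in the age test (Ggamma30A and, opposite let7C, CG10283). In 0 pairs did both genes pass the age test. The tested pairs had the same sign in 11 of 13.

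**Figure D3:**
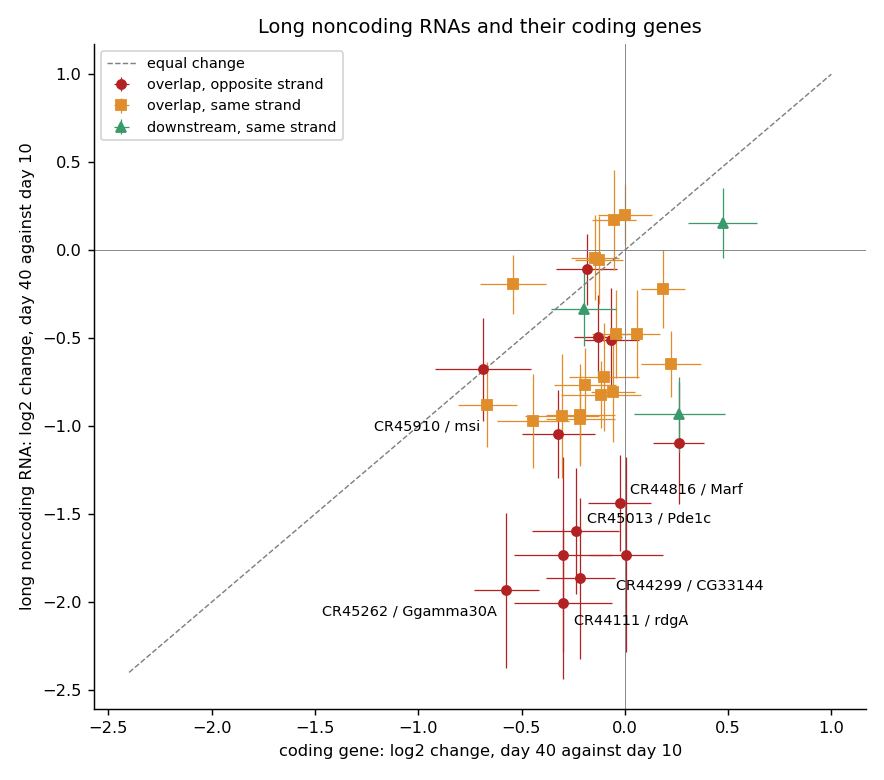
Log2 change from day 10 to day 40 of the long noncoding RNA (y axis) against that of its coding gene (x axis) for the 34 pairs whose coding gene had a mean of at least 10 CPM, with standard errors and a dashed line of equal change. Most drawn points lie below the line: CR44111 at -2.01 stands over an rdgA value of -0.30, and CR44816 at -1.44 over a Marf value of -0.03. Pairs left out by the limit are CR43836 (-1.73) with CG10962 (-2.04) and with CG12662 (-1.90). CR45897 (-0.30) with Lasp (1.83) is left out too.

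Within ages, some members were higher in libraries with more no-feature pairs. In a fit chosen after seeing the data, with a mean for each age and the log2 no-feature ratio beside it, 7 of 60 members were called higher with a higher ratio within ages (11.7%), against 0.833% of all genes, and 1 was called lower. The slope was positive in 44 of 60 members (73.3%) and in 48.5% of all genes. Among opposite strand members 5 of 12 were called higher and 11 of 12 slopes were positive, and among intronic members 0 of 11 were called and 10 of 11 were positive. With no coding gene, 1 of 26 was called and 16 were positive. Day 10 replicate 3 weighs on this fit: without it 5 members and 1 opposite strand member were called, although 11 of 12 opposite strand slopes stayed positive and 7 had an unadjusted p under 0.05. Without day 10 replicate 2 the counts were 4 and 3, and 11 of 12 slopes were positive in each of the 14 fits that leave out a library. The exception with all 14 libraries was CR45223, with a slope of -1.04 (edgeR adjusted p = 0.184). For CR44299 the slope was 2.83 (log2 CPM for each log2 unit of the ratio, edgeR adjusted p = 0.00119), for CR45013 2.07 (adjusted p = 0.00559), for CR44111 2.37 (adjusted p = 0.0154), for CR45262 2.35 (adjusted p = 0.0210) and for CR45910 1.31 (adjusted p = 0.0234). The other 2 called higher were CR43836 at 3.37 (adjusted p = 0.00214) and CR45699 at 2.49 (adjusted p = 0.0402), and mimi was called lower at -1.07 (adjusted p = 0.0202). CR43836 lies opposite rdgA as well as on the strand of CG10962. CG10962 itself was called lower at day 40, from 15.1 to 3.58 CPM (log2 -2.04 ± 0.52, edgeR adjusted p = 0.0190).

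**Figure D4:**
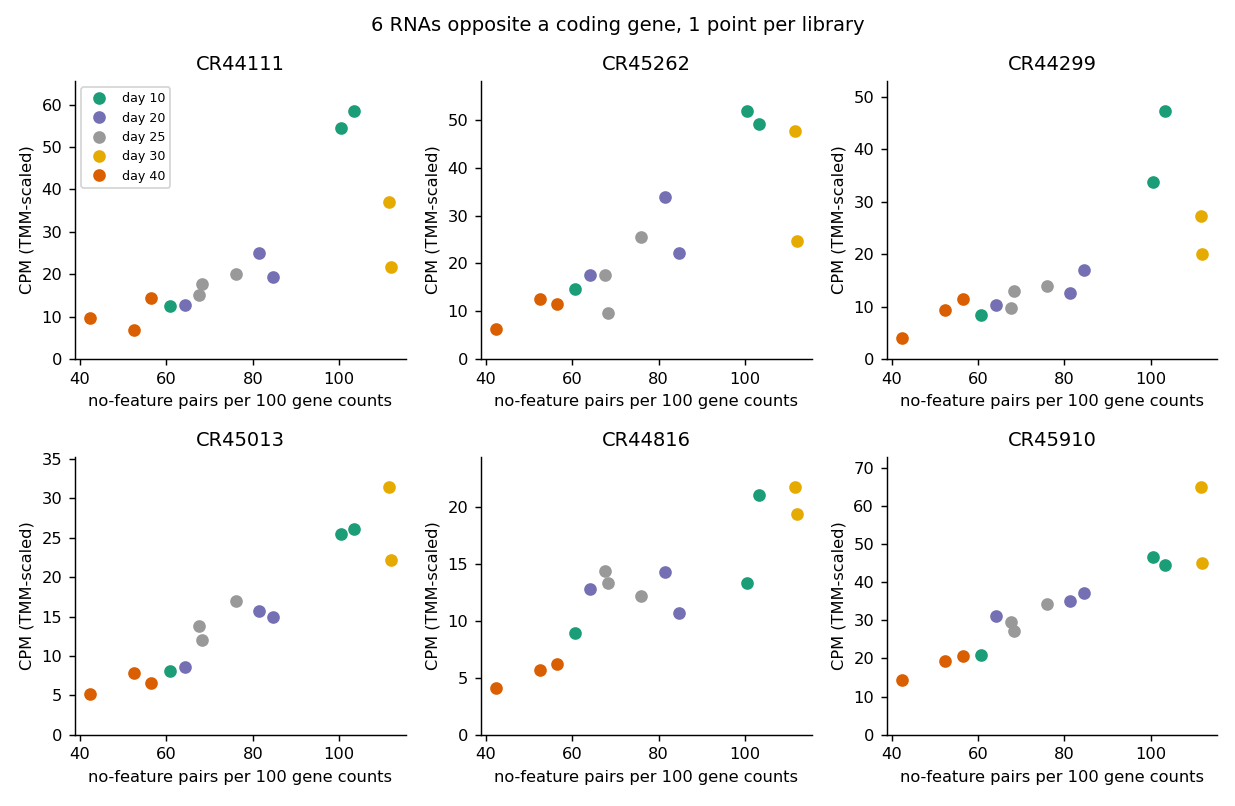
Level in CPM (y axis, TMM-scaled, from 0) of the 6 called opposite strand members against no-feature pairs per 100 gene counts (x axis), 1 point per library, coloured by age. Day 10 replicate 3, with a ratio of 60.7, lies with the day 20 and day 40 points and away from the other day 10 libraries at 100.4 and 103.

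With this ratio as a covariate, the difference between day 40 and day 10 was estimated anew for all members. The median log2 change moved from -0.39 to 0.039 and 27 of 60 were negative, while the median SE rose from 0.26 to 0.34. Called members were CR31781 and CR40469 (higher), mimi (lower) and CR45699 (higher, log2 2.35 ± 0.54, edgeR adjusted p = 0.0307), and 11 members had an unadjusted p under 0.05. The opposite strand median moved from -1.07 to -0.023, with 0 of 12 called. Intronic members moved from -0.72 to 0.089 with 0 of 11 called, and members that share exon bases from -0.48 to -0.056 with 0 of 8. Members with no coding gene moved from -0.13 to 0.18 with 3 of 26 called, and those just downstream from -0.33 to -0.35 with 1 of 3. Each member called lower in day 40 against day 10 without the covariate lost that call with it. The age test with the covariate still called CR45180 (log2 -0.74, edgeR adjusted p = 0.0398) and CR44301 (log2 -0.70, edgeR adjusted p = 0.0297) lower. Its median log2 change was -0.18 for the members, with 43 of 60 negative, and 0.013 for all genes. CR44111 had 0.12 ± 0.44, CR45262 0.04 ± 0.44, CR44299 0.54 ± 0.36, CR45013 0.18 ± 0.33 and CR45910 0.04 ± 0.26 as log2 changes in that fit, all with the sign turned, while CR44816 kept a negative value of -0.62 ± 0.37 (edgeR adjusted p = 0.521). Some members moved the other way, among them Hsromega, to -1.30 ± 0.38 (edgeR adjusted p = 0.0969). The called member noe went from -0.65 ± 0.19 to -1.02 ± 0.26 (edgeR adjusted p = 0.0517), and CR45223 from -0.51 ± 0.30 to -1.24 ± 0.38 (edgeR adjusted p = 0.113). CR44922 lost its call with little change in value, from -0.38 ± 0.11 to -0.35 ± 0.18 (edgeR adjusted p = 0.412). Age and the ratio varied together, and what share of the falls goes with each cannot be told apart in 14 libraries.

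**Figure D5:**
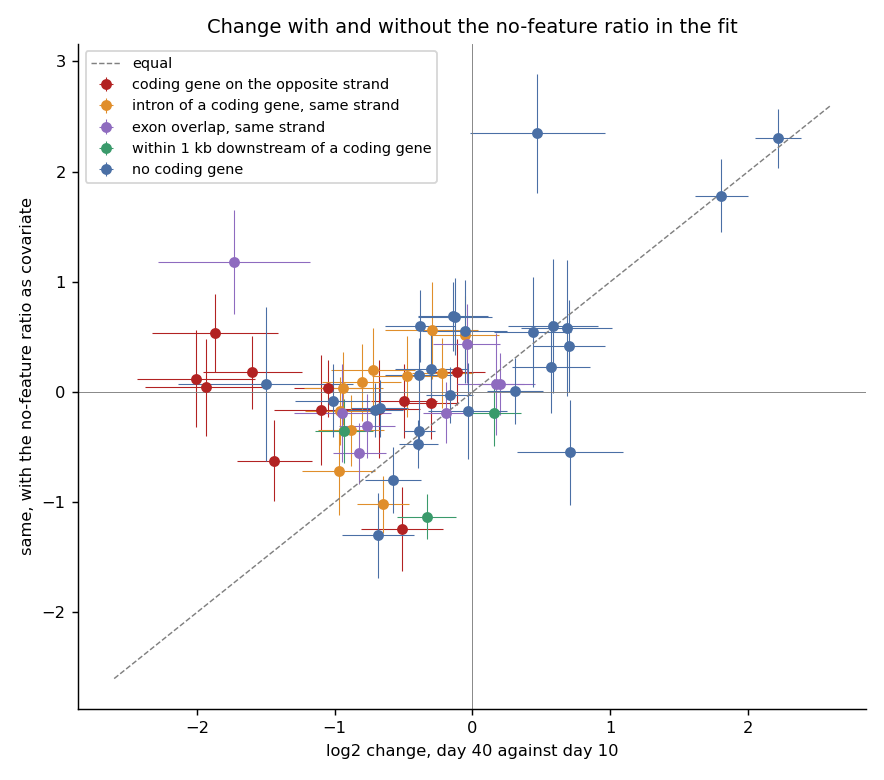
Log2 change from day 10 to day 40 with the log2 no-feature ratio as a covariate (y axis) against the change without it (x axis), for 60 members with standard errors and a dashed line of equality. CR31781 and CR40469 stay on the line at the upper right, and the 6 opposite strand members called without the covariate move from values of -2.01 to -1.05 to values between -0.62 (CR44816) and 0.54 (CR44299).

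Of the members inside or beside a coding gene on its own strand, the 8 called lower had log2 changes of -0.96 (CR44301), -0.97 (CR44050), -0.94 (CR44300), -0.93 (CR42874), -0.88 (CR44360), -0.82 (CR43900), -0.76 (CR42862) and -0.65 (noe), and the lowest value, -1.73 for CR43836, was not called. CR44301 and CR44300 lie in an intron of CG33144, 168 bp apart, across from CR44299. CR44301 had 52.6, 75.2 and 44.7 CPM at day 10 and 37.0, 28.9 and 23.0 at day 40, without overlap (log2 -0.96 ± 0.25, edgeR adjusted p = 0.0233, and 0.0121 in the age test). CR44300 had 40.0, 58.5 and 31.2 and 28.3, 25.5 and 14.3 CPM (log2 -0.94 ± 0.29, edgeR adjusted p = 0.0470, and 0.0405 in the age test). Their ratio ran from 1.01 to 1.61 over the 14 libraries, and that of CR44299 to CR44301 was spread less evenly, with CR44301 at 1.11 to 5.76 times CR44299. Counts of CG33144 itself were 862 and 743 CPM (edgeR adjusted p = 0.458).

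CR44360, in an intron of DopEcR, a receptor for dopamine and ecdysteroids, went from 40.1, 41.0 and 36.1 CPM at day 10 to 23.1, 23.0 and 17.8 at day 40 (log2 -0.88 ± 0.24, edgeR adjusted p = 0.0271). The host was called lower too, from 1073 to 676 CPM (log2 -0.67 ± 0.14, edgeR adjusted p = 0.00763). CR44050, in an intron of the chloride channel gene pHCl-1, had 14.1, 19.4 and 16.4 CPM at day 10, 7.08, 5.01 and 8.12 at day 25 and 8.97, 9.35 and 7.20 at day 40. It was the 1 member called lower by day 25 (log2 -1.31 ± 0.27, edgeR adjusted p = 0.0261) and its day 25 and day 40 values overlapped (day 40 log2 -0.97 ± 0.26, edgeR adjusted p = 0.0267). CR43900 lies inside Cam, the calmodulin gene, on its strand and shares 199 exon bases with it. Unspliced Cam RNA outside those bases would be counted as CR43900, which was counted from the rest by the annotation used here. It had 120.3, 137 and 114 CPM at day 10, 141 and 92.1 at day 30 and 83.0, 69.4 and 57.9 at day 40, and the day 40 libraries held the 3 lowest values of the 14 (log2 -0.82 ± 0.19, edgeR adjusted p = 0.0117, and 0.0145 in the age test). Cam was at 1442 and 1331 CPM (edgeR adjusted p = 0.763). CR42874, 509 bp downstream of the sterol transport gene Npc2a, had 21.6, 24.2 and 16.2 CPM at day 10 and 13.4, 8.75 and 10.3 at day 40 (log2 -0.93 ± 0.21, edgeR adjusted p = 0.0106), while Npc2a was at 100.1 and 119.9 CPM (edgeR adjusted p = 0.498). Among 21 tested pairs on the same strand, 2 coding genes were called in the age test, DopEcR and mura, and in 0 pairs did both genes pass the age test. The day 40 changes of these pairs had the same sign in 16 of 21.

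Of the members with no coding gene, CR45180 fell most among those called. It lies at chromosome 3L, 25708177 to 25709251, and the nearest coding gene downstream on its own strand is 506563 bp away. CR45180 had 110.0, 159 and 74.4 CPM at day 10, 56.7, 80.6 and 71.4 at day 20, 57.96, 46.4 and 81.5 at day 25, 72.3 and 36.7 at day 30 and 64.4, 55.0 and 50.8 at day 40. At day 20, 2 of 3 libraries were already under the lowest day 10 library, and the day 40 libraries lay under all of day 10. The log2 change at day 40 was -1.01 ± 0.27 (edgeR adjusted p = 0.0244, and 0.0129 in the age test). CR44120 had a larger change of -1.50 ± 0.64 that was not called (edgeR adjusted p = 0.146). Its day 40 levels were 27.4, 23.9 and 1.86 CPM, and replicate 3 alone carried the lowest of them. CR44946, the member called by the age test alone (edgeR adjusted p = 0.0356), followed a curve, with 14.1, 18.1 and 11.8 CPM at day 10, 8.22, 9.95 and 6.57 at day 25 and 14.9, 13.0 and 7.93 at day 40. Its day 40 and day 10 libraries overlapped, with a log2 change of -0.30 ± 0.26 and an edgeR adjusted p of 0.525. The neighbours CR45456 and CR45457, 317 bp apart, had day 40 values of 53.8, 39.0 and 104 and of 26.8, 27.8 and 55.3 CPM, high in replicate 3, and were not called (edgeR adjusted p = 0.284 and 0.212). The ratio of CR45457 to CR45456 lay between 0.456 and 0.787.

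Genes of the machinery that trims or ends noncoding transcripts were read as well, and their counts of calls are to be set against the 8.35% of all genes called in the age test and 10.4% at day 40. The nuclear exosome degrades nuclear RNA from its end, and 0 of 11 measured genes were called in the age test or at day 40, and most of these genes were at a few CPM or less, where few counts stand behind a value. Rrp6, its nuclear exonuclease, had means of 21.1 CPM at day 10 and 21.6 at day 40. The Integrator complex cleaves noncoding transcripts, and 1 of 10 measured genes was called, IntS4, from 19.1 to 35.5 CPM (log2 0.90 ± 0.19, edgeR adjusted p = 0.00756). The median log2 changes were 0.297 for the exosome list and 0.20 for the Integrator list, against 0.0078 for all genes.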

How the data were processed

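Raw counts were deposited by the authors as a table of 17558 genes and 15 libraries. Reads were trimmed with Trimmomatic, aligned with TopHat to BDGP6 and counted over exons with HTSeq in strand-specific mode, per the submitters' processing notes and methods. The authors also deposited filtered counts and their CPM, which were not used here. Groups came from the sample titles. For the 10 columns numbered 1 or 2, the age alone was taken from the labels, and replicate numbers are those of the column names. Replicates are biological by the study's methods, and no replicate pair agreed within sampling noise.

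Members and gene lists were chosen with earlier results of these data known. Genes over 1 CPM in at least 3 of the 14 libraries (10678 genes) were tested in R 4.3.3 with edgeR 4.0.16 (quasi-likelihood, TMM scaling, Benjamini-Hochberg adjustment over all genes, threshold 0.05), after a check on simulated data. The age test used a linear and a squared term, and its direction is the fitted day 40 against day 10. Contrasts used a mean per age over all 14 libraries. CPM values are TMM-scaled unless called plain, and the rule used plain CPM. Named members were those called in the age test or at day 40, the 10 most abundant, those with a proper name, the coding genes that overlap them and those at the level limit. CR43836, CR43654, CR45223, CR44120, CR45699, CR43857, the microRNA hosts and CR45456 with CR45457 were named after their values were seen. Symbols and positions came from Ensembl 115 (BDGP6.54), which names 17252 of the genes. Alternatives were other scalings, no filter, DESeq2 1.42.0, limma-voom (limma 3.58.1), covariates, a replicate block and each library left out. The floors of 3 counts reflect counting noise alone, as no molecular identifiers are described that would mark copies of a molecule.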

Additional observations from a re-analysis of the deposited data

Results flagged for a closer look

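Day 30 replicate 3, which entered no comparison, still held signal for the members: 56 of 60 had at least 3 counts in it. It had 518520 gene counts in all, of which the members made up 1.82%, with a median of 10.5 counts per member. It was singled out because it is measured data that no comparison used. With it included, 14 members and 983 of all genes were called in the age test. In day 40 against day 10 these were 20 and 1165. Groups of 3 were not searched for stray libraries.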

How the results depend on the processing

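In the age test (11 members called as reported), 24 were called without a filter on low counts, 18 by DESeq2, 18 with log2 library size as a covariate and 5 with the no-feature ratio as a covariate. All genes called moved as well, from 892 as reported to 1272, 1486, 1076 and 436 in the same order. Without the filter, more genes were tested. Day 20 against day 10 (0 as reported) gave 1 with library size scaling, 6 without the filter and 2 by DESeq2. All genes called there were 1 as reported and 10, 128 and 49 in these settings. Day 25 against day 10 (3) gave 11 without the filter and 5 by DESeq2, and day 30 against day 10 (2) gave 7, 7 and, with the no-feature ratio, 11. All genes called went from 104 to 460 and 397 at day 25, and from 93 to 403, 376 and 499 at day 30. Day 40 against day 10 (20) gave 4 with the no-feature ratio, and 15 to 29 under the other settings with all 14 libraries. All genes called there were 1112 as reported, 197 with the no-feature ratio and 863 to 1577 under those other settings. Day 40 against day 30 (4) gave 13 without the filter, 0 with log2 library size and 0 with the no-feature ratio. All genes called there went from 119 to 370, 0 and 0. The causes were not tested. The numbers of the columns do not pair the libraries: deviations of libraries with the same number correlated at -0.16 to 0.13 across genes. The replicate block gave 8 members in the age test, 16 at day 40 and 2 in day 40 against day 30, with 676, 863 and 38 of all genes. Leaving out 1 library gave 4 to 15 members in the age test, 0 to 2 at day 20, 1 to 7 at day 25, 1 to 3 at day 30, 4 to 22 at day 40 and 0 to 8 in day 40 against day 30. Where this left day 30 with 1 library, that library was assumed to vary like the other ages. Of 724 refits of the 31 called log2 changes, 560 stayed called with the same sign, 158 kept the sign and lost the call, and 6 reversed. All 6 were day 40 changes under the no-feature ratio, with log2 values of 0.036 (CR45910), 0.035 (CR44300), 0.042 (CR45262), 0.12 (CR44111), 0.54 (CR44299) and 0.18 (CR45013). With library size scaling the median of all genes moved to 0.11 and that of the members to -0.28 at day 40. A level limit of 5 CPM would give 109 members and one of 20 CPM 35. The lowest count of a member in the 14 libraries was 33, whereas the lowest exosome genes lay near 1 CPM. Whether depth limited the calls was not tested.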
